A study of Mus musculus with 14 samples.

Results

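The change in gene expression between day 5 and day 10 of reprogramming was measured by RNA sequencing in control cells. The cells were mouse embryonic fibroblasts of strain OG2/129SV. They were transduced with Oct4, Sox2, Klf4 and c-Myc, the 4 factors that together turn fibroblasts into induced pluripotent stem cells, and with a control vector. Medium for embryonic stem cells, with serum and LIF, was used for all groups. The comparison takes 4 of the 14 libraries of the series, 2 of control cells at day 5 and 2 at day 10 after infection. For the same interval, 4 libraries were used of cells that received the same factors with Cdk9-DN in place of the control vector, a form of the elongation kinase Cdk9 that its name describes as dominant-negative. Of 26962 genes listed in any library, 5798 could be tested between the control groups.

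In bulk RNA of a culture, fewer cells of a type and less RNA per cell cannot be told apart. Nothing in the labels says that the 2 libraries of a group came from separate cultures or embryos, so a p-value here reflects the spread among these libraries alone, which may be technical. All values are FPKM (fragments scaled by the length of the transcript and the depth of the library), given as replicate 1 and replicate 2. All differences are those of log2(FPKM + 1), day 10 minus day 5, with the standard error of limma over 12 libraries in 6 groups. Called means an adjusted p under 0.05, and rose or fell is written of called genes only. A gene that a library does not list has no value there, and a listed 0 may be a failed estimate instead of absent RNA. Genes had to reach 1 FPKM in 2 or more libraries, and of the 5798 tested, 801 were under 1 FPKM in every listed day 5 library and 599 in every listed day 10 library. Such genes passed through other groups and could hardly move but one way, so the counts of lists that hold them are descriptions only.

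Fibroblasts are mesenchymal cells, which make matrix, lie apart from each other and hold epithelial genes silent through repressors of the Snail, Twist and Zeb families. Early in reprogramming they pass through a mesenchymal-to-epithelial transition, in which these repressors and matrix genes decline and junction proteins, claudins and keratins are switched on. The endogenous pluripotency network around Oct4, Sox2 and Nanog is known to be switched on late, and in few cells of a culture.

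The depth implied by the deposited bounds was 8.79 to 12 M fragments in the 4 control libraries, with the lowest in replicate 2 of day 5. That library stood apart, with 76.1% of its summed FPKM in its 10 highest genes against 40.4% to 51.1% in the other 3. Over genes of at least 10 FPKM, the median difference between replicates was 0.0993 at day 5 and 0.128 at day 10 on the log2 scale. Several genes that define these cells were not listed and are not analysed here: Pou5f1, Esrrb, Cdh1, Col1a1, Col1a2, Col3a1, Fn1 and Vim. Of genes with at least 17 exons 28.5% were listed in all 4 control libraries, and of genes with 1 exon 89.6%. Of the fibroblast markers, Dcn and Pdgfra were listed in all 4 libraries, and their summed FPKM was 18.3 and 22.3 at day 5 and 4.09 and 4.71 at day 10.

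Nearly as many genes fell as rose over the 5 days. Of the 5798 genes tested, 1582 (27.3%) rose and 1303 (22.5%) fell, together 49.8%, and the median difference over all genes was 0.04. With median-of-ratios scaling the split was 1438 higher and 1482 lower, and the higher share was no longer the larger. Large changes were mostly upward: 216 genes rose by more than 2 on the log2 scale and 50 fell by more than 2. Among protein-coding genes these were 167 and 31. Of the 4505 genes listed in all 4 control libraries, 67.9% had groups that did not overlap. A lack of overlap is thus common and adds little to the call of a gene named below. Without replicate 2 of day 5, 1362 genes rose and 967 fell among 5264 tested. The 2 against 2 design cannot go below p = 0.333 in a two-sided exact permutation test, so calls rest on the spread that limma shared between groups and genes.

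**Figure D1:**
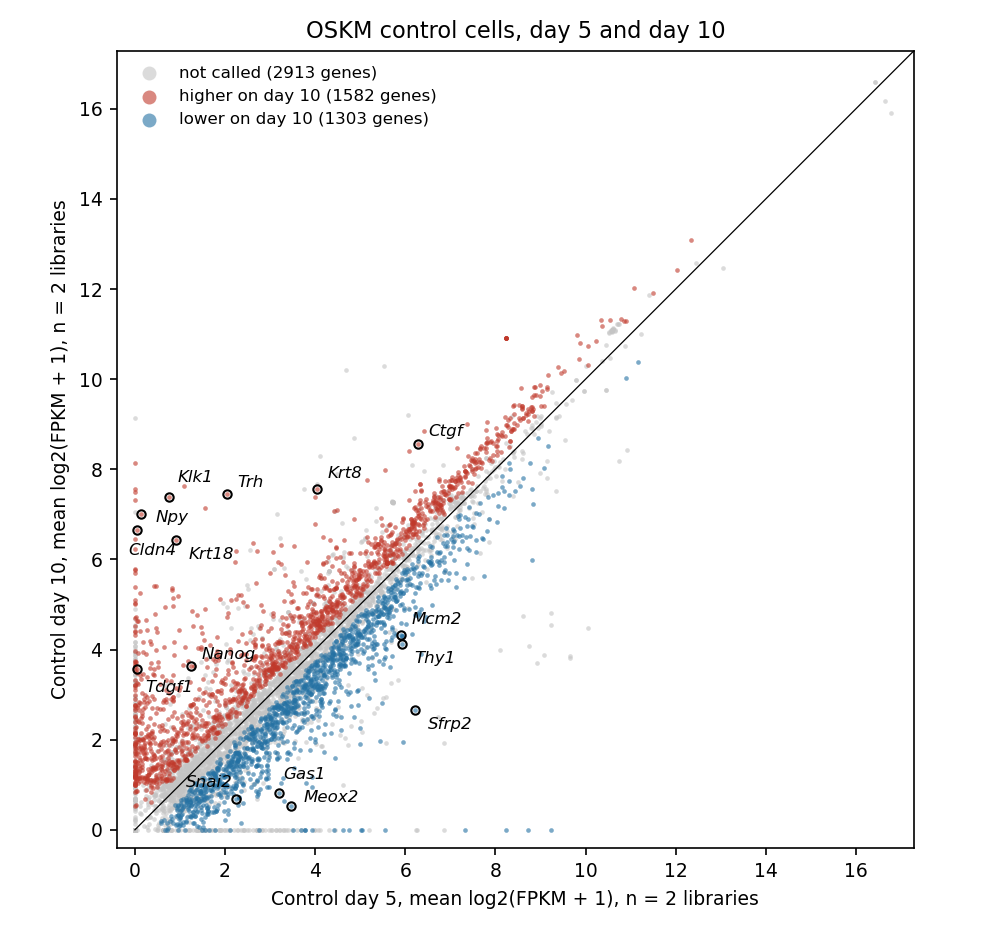
Mean log2(FPKM + 1) of control cells at day 5 (horizontal axis) against day 10 (vertical axis), 1 point for each of the 5798 genes tested, with called genes in colour and some named genes labelled. Npy, Cldn4 and Krt18 lie near 0 at day 5 and far above the diagonal, and Sfrp2 and Meox2 lie far below it.

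The 12 genes with the highest differences among those that met the rule for naming included Npy, Klk1, Cldn4, Ddit3, Sprr2b, Krt18, Trh, Eif2c2, Fabp3, Ly6d and Alox12b. The rule for these 12 and for the 12 lowest takes only genes whose groups do not overlap, so a lack of overlap in them restates the rule. Alox12b, a lipoxygenase of the skin barrier, was at 0.0327 and 0 FPKM at day 5 and at 25.7 and 25.1 at day 10. Klk1, a secreted kallikrein protease with many near-identical neighbours whose reads may be shared, was at 0.868 and 0.522 and then at 190.3 and 145 FPKM. The row named Eif2c2, the older symbol of Argonaute 2, carries another gene identifier than Argonaute 2 has in the reference names, and covers a short span (chr15:72926274-72927114), so that it may not stand for the whole gene. It had a listed 0 in each day 5 library and 32.0 and 31.7 at day 10. Fabp3, a fatty acid binding protein, was listed at 0 in each day 5 library and then at 32.2 and 30.5. It was at 13.5 in the control library of day 3 and at 0 and 9.45 in those of day 4. Its listed zeros may thus be failed estimates. The calls of Eif2c2 and Fabp3 were both lost when any 1 of the 4 control libraries was left out.

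Epithelial keratins and junction genes rose together. Of 35 genes on the list, 15 were listed, 10 could be tested and all 10 rose, against 27.3% of all genes, with a median difference of 3.40 against 0.04. Of these 10, 7 were under 1 FPKM in every listed day 5 library, and the remaining 3 rose too. With either of the other scalings 9 of the 10 rose, and Cdh3 was not called. Claudins are the strands of tight junctions. Cldn4 (chr5:135420996-135422804, mm9) was at 0 and 0.0624 FPKM at day 5, the second value implying 1 fragment, and at 102 and 98.0 at day 10 (difference 6.61 ± 0.0726, adjusted p = 9.30e-09). Cldn3 (chr5:135462084-135463342) was at 4.98 and 5.32 at day 5 and at 82.0 and 80.2 at day 10, 15.8-fold higher. Cldn6 (chr17:23816332-23819413) had a listed 0 in each day 5 library and 24.8 in the 1 day 10 library that lists it. So 2 of the 3 claudins came from a level near 0, and Cldn3 from a low level.

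Keratins 8 and 18 pair into the filaments of simple epithelia. Krt18 (chr15:101858647-101862457, mm9) was at 0.853 and 0.921 FPKM at day 5 and at 86.6 and 83.8 at day 10, 96.1-fold higher (difference 5.51 ± 0.131, adjusted p = 2.16e-07). Its partner Krt8 (chr15:101827142-101834773) already stood at 15.6 and 15.5 at day 5, and the 1 day 10 library that lists it gave 189, 12.2-fold higher. At day 5 Krt8 thus lay far above Krt18, and the listed day 10 values lay closer together. The smaller changes of the list were those of Cdh3 (0.39), which encodes P-cadherin, and of Cldn1 (0.64). The desmosomal cadherin Dsg2 (2.51), Marveld3 (3.27), of tight junctions, and Ovol1 (1.65), which encodes a transcription factor of epithelia, lay between. These 5 lay outside the rule for naming and were named after their values were seen.

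The promoters of these genes are shown because the list moved together. The Snail and Zeb repressors are known to bind the E-box CAGGTG, which reads CACCTG on the other strand. The 250 bases before the start of each gene were taken from RefSeq on GRCm38.p6, a later build than the mm9 of the FPKM tables, and 6 of the 10 tested genes had an entry. The motif, in capitals, lay in 4 of these 6 promoters (66.7%). It lay in 17.2% of all 32851 promoters of the table, in 15.6% of the 2045 promoters of tested genes and in 1 of 7 (14.3%) of the fibroblast matrix list. The first base of the motif stood 14 bases before the start in Cldn4 (chr5:134946935-134947184, minus strand), 93 in Cldn6 (chr17:23679115-23679364, plus strand), 214 in Krt18 (chr15:102027966-102028215, plus strand) and 111 in Krt8 (chr15:102004343-102004592, minus strand). No match was found in this window for Cldn1 or Cldn3. A match describes the letters only and binding was not measured.
Cldn4: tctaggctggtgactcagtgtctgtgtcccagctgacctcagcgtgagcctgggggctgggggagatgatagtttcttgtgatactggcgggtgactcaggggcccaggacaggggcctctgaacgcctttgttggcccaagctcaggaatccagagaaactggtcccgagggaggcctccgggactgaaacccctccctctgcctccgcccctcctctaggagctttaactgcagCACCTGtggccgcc
Cldn6: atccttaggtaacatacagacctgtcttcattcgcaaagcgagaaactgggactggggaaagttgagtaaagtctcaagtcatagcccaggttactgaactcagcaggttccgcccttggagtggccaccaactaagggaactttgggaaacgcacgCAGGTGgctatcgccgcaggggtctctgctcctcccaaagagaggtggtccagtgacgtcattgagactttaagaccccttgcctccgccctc
Krt18: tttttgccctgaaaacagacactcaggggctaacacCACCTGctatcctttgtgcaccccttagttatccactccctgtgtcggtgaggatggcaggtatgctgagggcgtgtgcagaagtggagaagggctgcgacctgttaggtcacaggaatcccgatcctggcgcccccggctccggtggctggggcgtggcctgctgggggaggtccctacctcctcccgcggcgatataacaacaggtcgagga
Krt8: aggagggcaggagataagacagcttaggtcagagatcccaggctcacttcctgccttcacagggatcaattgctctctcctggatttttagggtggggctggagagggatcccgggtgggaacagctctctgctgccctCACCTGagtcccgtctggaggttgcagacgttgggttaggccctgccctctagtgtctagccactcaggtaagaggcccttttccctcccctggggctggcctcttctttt

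Genes of stratified epithelium, the layered epithelium of skin, rose as well. Of 28 markers of stratified epithelium and trophoblast, 21 were listed and 9 tested. Of these 8 rose, against 27.3% of all genes, with a median of 2.45. At day 5, 4 of the 9 were under 1 FPKM, and of the remaining 5, 4 rose. Sprr2b, a precursor of the cornified envelope, was at 2.25 and 1.67 FPKM at day 5 and at 148 and 131 at day 10 (71.4-fold). Ly6d, a surface protein of keratinocytes, was at 0.599 and 0.206 and then at 40.8 and 41.7. Sfn, which encodes 14-3-3 sigma, went from 3.44 and 4.02 to 74.9 and 68.1 FPKM (19.2-fold), and Perp, a desmosomal protein, from 46.3 and 45.3 to 254 and 253 (5.54-fold). Sfn and Perp thus stood well above 0 at day 5, Perp the higher. Krt5, the basal keratin, was at 0.159 and 0.527 at day 5 and at 10 in the 1 day 10 library that lists it. The gene of the list that was not called, Sprr1b, was at 5.64 and 0 and then at 1.8 in 1 library. The values above 0 implied only 0.292 fragments at day 5 and 0.0285 at day 10, so its level is not known.

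Of the pluripotency genes that could be tested most rose, several from levels near 0. Of 40 genes on the list, 24 were listed and 14 tested. Of these 11 rose, against 27.3% of all genes, and none fell, with a median of 1.23. At day 5, 6 of the 14 were under 1 FPKM, and of the remaining 8, 5 rose. Sox15, a relative of Sox2, had a listed 0 in each day 5 library and 19.5 and 18.6 FPKM at day 10, and Utf1, a chromatin factor of embryonic stem cells, 0 and then 12.9 and 10.7. Dppa5a, an RNA-binding protein of pluripotent cells, was at 0.0878 and 0 at day 5 and at 26.8 and 21.4 at day 10. Tdgf1, the Nodal co-receptor Cripto, was at 0 and 0.0582 and then at 10.7 and 10.9. In all 4 the day 5 values implied at most 1 fragment, so these genes could be tested only through other groups.

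Nanog (chr6:122657507-122664651, mm9), the homeobox factor at the centre of the network, was at 1.15 and 1.63 FPKM at day 5 and at 11.5 in the 1 day 10 library that lists it (8.27-fold, difference 2.39 ± 0.189, adjusted p = 3.09e-04). Nr0b1, the nuclear receptor Dax1, rose from 1.36 and 1.06 to 4.29 and 3.91 (3.38-fold). Sox2 was at 489 in the 1 listed day 5 library and at 484 in the 1 listed day 10 library (difference -0.01 ± 0.136, adjusted p = 0.962). Its vector copy and its own gene cannot be told apart in these values. Gdf3, a ligand of the Nodal pathway, was at 1.02 and 1.22 and then at 1.33 and 1.25, and was not called. So the highest level among the tested genes was that of a delivered factor, and the other genes of the list stayed under 30 FPKM.

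Peptide hormones and neuropeptides are stored and released by neurons and endocrine cells, and 2 of them, Npy and Trh, were among the 12 genes with the highest differences. Of 50 genes on the list 45 were listed, 16 were tested, 11 rose and 2 fell, with a median of 1.61. Of all genes 27.3% rose and 22.5% fell. At day 5, 4 were under 1 FPKM, and of the remaining 12, 7 rose and 2 fell. With quantile normalization 9 rose, and without replicate 2 of day 10, 11 were tested and 7 rose. Npy (chr6:49772709-49779506, mm9), neuropeptide Y, was at 0.201 and 0 FPKM at day 5, the first value implying 1 fragment, and at 134 and 123 at day 10 (difference 6.88 ± 0.215, adjusted p = 8.02e-07). Trh (chr6:92192055-92194644), thyrotropin-releasing hormone, was at 3.21 and 3.06 and then at 189 and 162 (56.0-fold). Tac2 (chr10:127162448-127168823), which encodes neurokinin B, was at 1.23 and 1.05 and then at 197 in the 1 library that lists it. All 3 lay above 100 FPKM in each day 10 library that lists them. Pcsk1n, an inhibitor of the prohormone convertase, rose from 14.8 and 15.1 to 170.2 and 163 (11.1-fold). The processing enzyme gene Cpe went the other way, from 111 and 116 to 77.5 and 85.7, as did Stc1, stanniocalcin, from 1.90 and 2.46 to 0.814 and 0.850. Cck was at 3.33 and 3.96 and then at 4.02 and 5.83 and was not called, nor was Nts.

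Mesenchymal regulators fell. Of 28 genes on the list, 17 were listed and 11 tested, and 8 fell and 1 rose, against 22.5% of all genes that fell, with a median of -1.10. At day 10, 4 of the 11 were under 1 FPKM, and of the remaining 7, 4 fell. Meox2, a homeobox factor of mesoderm, went from 10.2 and 9.86 FPKM to 0.417 and 0.456 (22.9-fold lower, difference -2.94 ± 0.0642, adjusted p = 8.02e-07). Snai2 (chr16:14705945-14709488, mm9), a repressor of the Snail family, was at 4.04 and 3.51 and then at 0.572 and 0.616 (6.35-fold lower). Twist2 was at 17.4 in the 1 listed day 5 library and at 2.68 and 4.13 at day 10, and Twist1 at 41.4 in 1 library and then at 11.6 and 13.4. Osr1, a zinc finger factor of limb and kidney mesenchyme, was at 4.10 and 4.50 and then at 0.501 in 1 library. All 5 were lower in each day 10 library than in each day 5 library listed. Of all genes listed in all 4 libraries, 67.9% had no overlap in either direction. Twist1, Twist2 and Osr1 are not among those genes, and with 1 value in a group a lack of overlap comes more easily. The member that rose was Msx2, a homeobox factor, from 0.144 and 0.451 to 1.17 and 1.13 FPKM. Tgfb3, a ligand, was at 12.6 in 1 library and then at 9.75 and 10.5, and Msx1 was at 1.43 and 1.39 and then at 1.21 and 0.980. Neither was called.

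Most tested matrix and surface genes of fibroblasts fell. Of 39 genes 15 were listed and 10 tested, and 8 fell, against 22.5% of all genes, and 1 rose, with a median of -1.35. At day 10, 2 of the 10 were under 1 FPKM, and of the remaining 8, 6 fell. Dcn (chr10:96942245-96980777, mm9), the proteoglycan decorin, went from 15.8 and 19.8 FPKM to 3.73 and 4.42 (4.37-fold lower). Cd248, the surface protein endosialin, went from 49.6 and 48.8 to 11.6 and 10.8 (4.39-fold lower). Thy1 (chr9:43851467-43856662), a surface antigen of fibroblasts that is lost early in reprogramming, was at 60.5 and 59.5 and then at 16.3 in the 1 listed library. In these 3 genes the RNA was reduced but present, at 3.73 FPKM or more in each day 10 library. Pdgfra, the receptor for PDGF, was at 2.47 and 2.54 and then at 0.364 and 0.290 (7.64-fold lower). Timp3, an inhibitor of metalloproteases, was called as higher, at 60.3 and 59.5 and then at 68.5 in 1 library, but under either other scaling no gene of the list rose. The collagenase gene Mmp2 was at 70.8 and 71.1 and then at 74.8 in 1 library, and was not called.

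The 12 genes with the lowest differences included surface and secreted proteins. Antxr1, a collagen receptor, went from 30.7 and 31.0 FPKM to 2.71 and 2.80 (11.2-fold lower), and Gas1, a growth arrest and hedgehog-binding protein, from 8.22 and 8.14 to 0.648 and 0.875 (10.7-fold lower). Sdpr, a protein of caveolae, went from 29.1 and 27.3 to 4.45 and 4.89, and Sostdc1, a secreted BMP and Wnt antagonist, from 43.0 and 44.0 to 7.35 and 5.01. All 4 remained detected at day 10. Rnmtl1, an RNA methyltransferase of mitochondria, was at 28.8 and 35.0 and listed at 0 in both day 10 libraries, but was also listed at 0 in both control libraries of day 4. Spn, which encodes the leukocyte surface protein CD43, was at 12.7 and 13.0 at day 5, at 0.984 and 1.15 at day 10, and at 3.62 and 3.95 at day 4. The other 6 were Sfrp2, Mtap6, Meox2, Fosl1, Nsg1 and Gap43. Mtap6, a microtubule protein, lay at 12.6 and 0.115 at day 10, and its adjusted p of 0.0416 was over the threshold without replicate 2 of day 10 (0.0738) and without either day 5 library (0.128 and 0.119).

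Of the tested genes of the Wnt pathway, which passes signals from secreted ligands through frizzled receptors, more fell than rose. Of 43 genes 31 were listed and 17 tested, and 10 fell and 5 rose, with a median of -0.66. Of all genes 22.5% fell and 27.3% rose, so that the share that rose was near that of all genes. At day 5, 2 of the 17 were under 1 FPKM, and of the remaining 15, 3 rose and 10 fell. Secreted inhibitors were among those that fell most. Sfrp2 (chr3:83570243-83578238, mm9) went from 77.8 and 69.8 FPKM to 5.26 and 5.39 (13.9-fold lower, difference -3.56 ± 0.117, adjusted p = 1.03e-06). Sfrp4 went from 16.3 and 15.2 to 3.46 and 4.24, and Dkk2 from 15.8 and 14.8 to 6.53 and 6.89. The receptor gene Fzd1 went from 6.97 and 6.46 to 1.91 and 1.96 (3.47-fold lower). In Sfrp4, Dkk2 and Fzd1 the groups did not overlap, as in 67.9% of all genes listed in all 4 libraries. Of the ligands, Wnt7a rose from 0.442 and 0.540 to 2.24 and 2.68 (5.02-fold) and Wnt9a from 2.06 in 1 library to 4.27 and 4.14. The inhibitor gene Dkk3, at 5.43 and 5.49 and then at 3.19 and 4.68, and the receptor gene Fzd4, at 1.17 and 1.75 and then at 0.644 and 0.636, were not called.

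**Figure D2:**
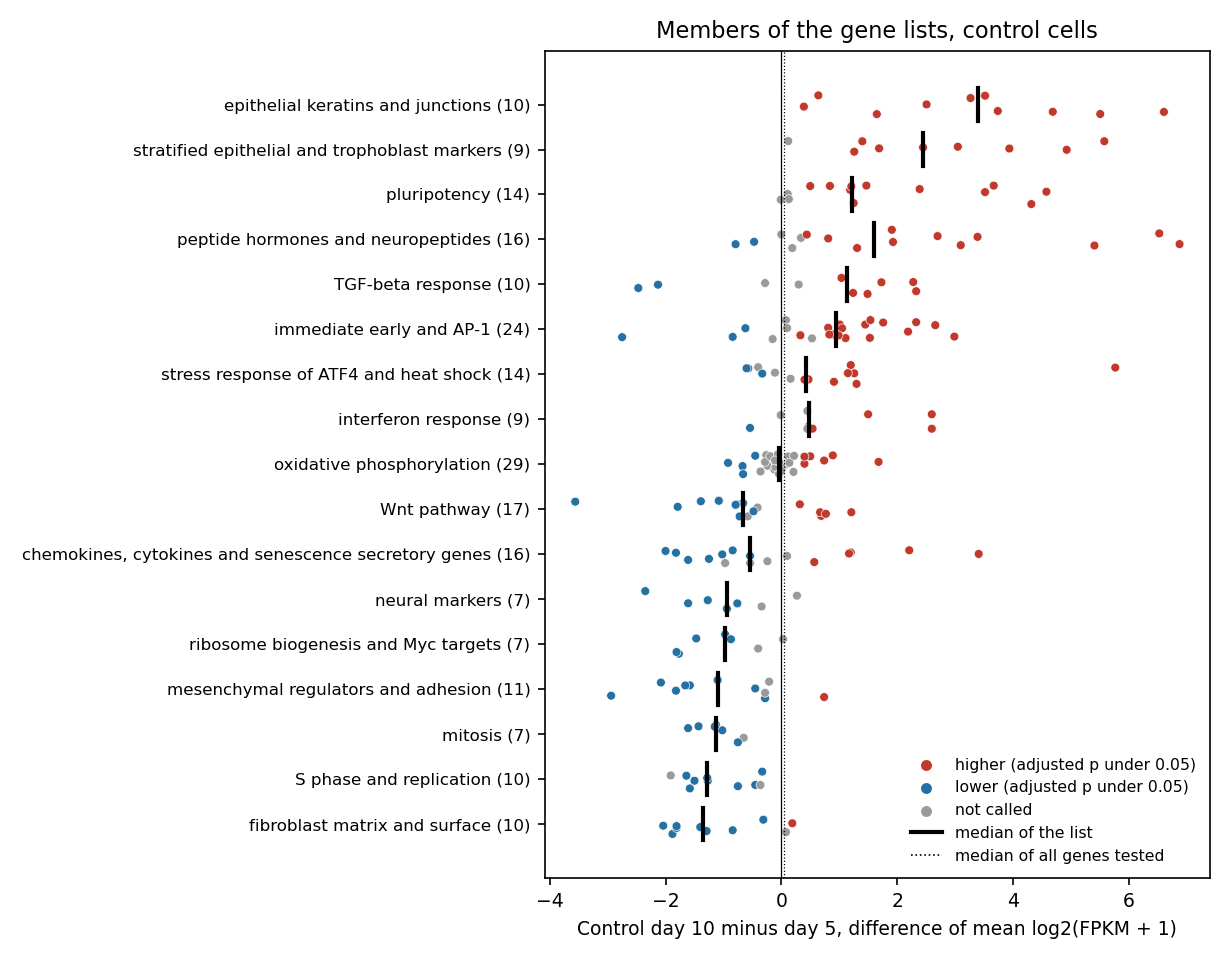
Log2 differences (day 10 minus day 5, horizontal axis) of the tested members of each gene list (rows), 1 point per gene, in colour where called and grey otherwise, with the median as a vertical bar. The epithelial, stratified and pluripotency lists lie to the right of 0, with medians of 3.40, 2.45 and 1.23, and the matrix, S phase and mitosis lists to the left, with medians of -1.35, -1.28 and -1.13.

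Genes of DNA replication fell, and none of the tested ones rose. Of 42 genes of S phase 12 were listed and 10 tested, and 8 fell, against 22.5% of all genes, with a median of -1.28. Without replicate 2 of day 5, 7 were tested and 4 fell, and without replicate 1 of day 10, 7 were tested and 5 fell. The MCM helicase unwinds DNA at replication forks, and 4 of its subunits were measured. Mcm4 went from 44.9 and 46.2 FPKM to 15.3 and 15.7 (2.94-fold lower). Mcm2 (chr6:88833469-88848774, mm9) was at 59.0 in 1 library and then at 19.3 and 19.0, Mcm3 at 60.1 in 1 library and then at 18.3 and 18.9, and Mcm6 at 74.8 and 72.5 and then at 29.7 in 1 library. The 4 subunits moved by like amounts, 2.48- to 3.23-fold. Rpa3, of the single-strand binding complex, was at 33.3 and 35.4 and then at 28.4 and 24.8. Dut, a nucleotide hydrolase, was at 1.27 and 5.25 and then at 0 and 0, and neither gene was called. The day 5 values of Dut implied 1 and 3 fragments. Its row covers a short span (chr2:125073636-125074764), so that it may not stand for the whole gene.

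Mitosis genes fell too, 6 of 7 tested of 16 listed and 39 on the list, with a median of -1.13 and none higher. Of all genes 22.5% fell. Birc5, the survivin subunit of the chromosomal passenger complex, went from 93.0 and 98.9 FPKM to 33.9 and 27.7 (3.11-fold lower), and the mitotic kinase Plk1 from 50.9 and 52.2 to 19.0 and 18.1 (2.78-fold lower). The groups did not overlap in either gene, as in 67.9% of all genes listed in all 4 libraries. Kif20a, a kinesin of the central spindle, was at 32.4 and 32.6 and then at 14.1 in 1 library. Cks1b, a small partner of cyclin-dependent kinases, was at 155 and 119 and then at 74.8 and 99.3 and was not called. Of the cell cycle inhibitors 4 were tested. Cdkn1b, the inhibitor p27, was at 19.8 in 1 library and then at 46.2 and 44.0 (2.28-fold higher), and Cdkn2d and Cdkn2b rose 2.16- and 1.67-fold, while Gas1 fell.

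Ribosome biogenesis and Myc targets fell over the same days. Of 40 genes 16 were listed and 7 tested, and 5 fell, against 22.5% of all genes, and none rose, with a median of -0.97. Ddx21, a nucleolar RNA helicase, went from 84.0 and 84.0 FPKM to 24.4 and 23.4 (3.51-fold lower), and Rrs1, an assembly factor of the large subunit, from 71.2 and 69.4 to 18.8 and 19.8 (3.65-fold lower). Rrp15 went from 52.8 and 47.3 to 17.6 and 17.3. Nhp2, of the snoRNP that modifies ribosomal RNA, was at 232 in 1 library and then at 126 and 111. Nop10, of the same particle, was at 69.9 and 62.0 and then at 57.6 and 42.5, and Imp3 at 78.5 and 83.0 and then at 81.7 and 83.7. These 2 were not called. Myc itself was at 819 and 844 at day 5 and at 746 in the 1 day 10 library that lists it, with the vector copy included.

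Of the tested genes listed for the TGF-beta response, more rose than fell. The list also holds ligands such as Bmp4, and signalling itself was not measured. Id1, Id2 and Id4 were among the members that rose, and which signal moved any member was not tested. Of 26 genes 13 were listed and 10 tested, and 6 rose and 2 fell, with a median of 1.14. Of all genes 27.3% rose and 22.5% fell, so that the share that fell was near that of all genes. Ctgf (chr10:24315248-24318489, mm9), a secreted matricellular protein, was at 78.6 and 75.0 FPKM at day 5 and at 376 in the 1 listed day 10 library (4.89-fold, difference 2.28 ± 0.0466, adjusted p = 5.93e-07). Id1 and Id2 encode inhibitors of basic helix-loop-helix factors. Id1 went from 66.1 and 66.8 to 347 and 331 (5.10-fold), and Id2 from 21.1 and 18.2 to 56.2 and 57.1. In these 3 genes the day 10 values lay above both day 5 libraries, and 67.9% of all genes listed in all 4 libraries had no overlap. Ctgf, with 1 value at day 10, is not among those genes. The 2 that fell were Tgfbi, a matrix protein, from 18.7 and 15.9 to 2.30 in 1 library, and Nov, a relative of Ctgf, from 8.62 and 8.98 to 1.25 and 1.22 (7.14-fold lower). Bmp4, at 5.57 in 1 library and then at 7.11 in 1 library, was not called.

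Immediate early genes answer growth factors and stress within minutes, and most of those tested were higher at day 10. Of 42 genes 29 were listed and 24 tested, and 17 rose and 3 fell, Fosl1 counted among these, with a median of 0.94. Of all genes 27.3% rose and 22.5% fell. Dusp5, a phosphatase that acts on ERK, went from 3.63 and 3.09 FPKM to 32.4 and 34.6 (9.96-fold), and Gadd45b, a stress sensor, from 21.8 and 19.0 to 134 and 135 (6.59-fold). Bhlhe40, a transcriptional repressor of the clock, went from 17.2 and 16.9 to 91.4 and 88.3, and Arc, known from neurons, from 0.489 and 0.773 to 6.81 and 6.07. The 4 genes had no overlap between the days, as 67.9% of all genes listed in all 4 libraries had none. Fosl1, a subunit of the AP-1 transcription factor, was at 4.99 and 6.52 at day 5, with 96.1 and 92.2 implied fragments, and was listed at 0 in both day 10 libraries, which may be failed estimates. Egr1 fell from 23.1 and 24.1 to 12.4 and 13.1, and Gadd45g, named after its values were seen, from 97.1 and 87.9 to 62.4 and 57.4. Ier2, at 44.1 and 41.0 and then at 40.3 and 36.2, was not called.

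Some genes that rose from day 5 to day 10 had also been higher before day 5. The change from day 4 to day 5 shares the day 5 libraries with the change from day 5 to day 10, so the values are set side by side and not related to each other. Ctgf was at 395 FPKM in the single library of day 3, at 172 and 173 at day 4, at 78.6 and 75.0 at day 5 and at 376 at day 10. Hbegf, a ligand of the EGF receptor from the list of secreted genes, placed here after its values were seen, was at 41.5 at day 3, at 13.5 and 14.9 at day 4, at 6.05 and 5.77 at day 5 and at 30.3 and 31.6 at day 10. Day 5 was the lowest of the days measured for both genes. From day 4 to day 5, 5.02% of 5951 genes were called, 109 higher (1.83%) and 190 lower (3.19%). In that step 11 of 24 tested immediate early genes fell and 1 rose, and 5 of 9 tested TGF-beta genes fell. Mcm3 was at 57.5 at day 3, at 48.1 and 47.8 at day 4, at 60.1 in 1 library at day 5 and at 18.3 and 18.9 at day 10. From day 4 to day 5 Mcm3 and Mcm6 were called as higher (adjusted p = 0.0252 and 0.0318), and Mcm2 and Mcm4 were not called (0.107 and 0.0739).

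**Figure D3:**
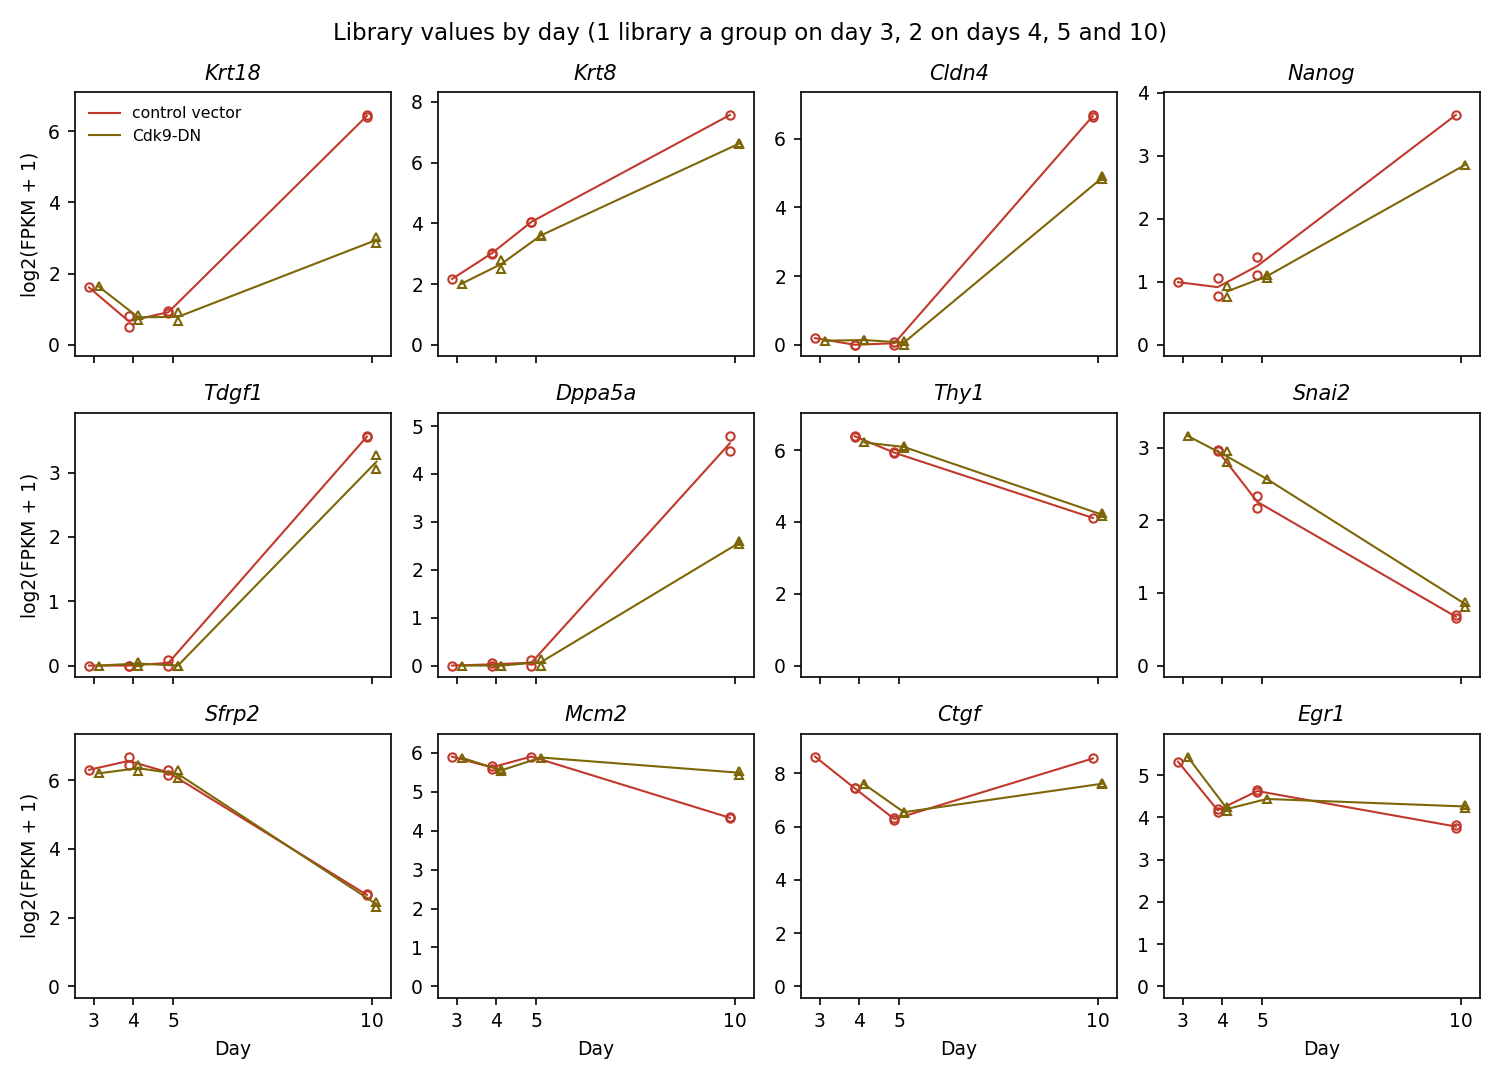
Log2(FPKM + 1), vertical axis, by day after infection (days 3, 4, 5 and 10) for 12 single genes, with 1 point per library and lines through the group means, control vector and Cdk9-DN in separate colours and signs. In control cells Ctgf falls in FPKM from 395 at day 3 to 78.6 and 75.0 at day 5 and is at 376 at day 10, and Krt18 stays under 3 until day 5 and reaches 86.6 and 83.8.

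Secreted inflammatory and senescence genes were mixed. Of 46 genes 33 were listed and 16 tested, 7 fell and 5 rose, and the median was -0.54. Of all genes 22.5% fell and 27.3% rose, so that the share that rose was near that of all genes. Without replicate 1 of day 10, 11 were tested and 4 fell. The chemokine genes Ccl2, from 37.5 and 37.7 FPKM to 11.6 and 11.8 (3.22-fold lower), and Cxcl14, from 38.0 and 39.3 to 9.89 and 10.5 (3.79-fold lower), fell. So did Ptx3, a soluble pattern receptor, from 16.3 and 13.8 to 3.15 and 2.88. Hbegf rose 5.24-fold and Saa3, an acute-phase protein, from 0.892 and 0.306 to 15.7 in 1 library. Gdf15, a stress cytokine, went from 2.05 and 2.21 to 6.51 and 5.85. Interferon-response genes numbered 15 listed of 39, and of 9 tested 5 rose and 1 fell, against 27.3% and 22.5% of all genes. Without replicate 1 of day 10, 1 of 6 tested rose, and without replicate 2, 3 of 6. Bst2, the virus restriction factor tetherin, was at 36.8 and 32.7 and then at 215 in 1 library, and Oas1a, a sensor of double-stranded RNA, at 1.08 in 1 library and then at 11.6 in 1 library. B2m, the light chain of MHC class I, fell from 127 and 138 to 101 and 81.9.

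Of the p53 targets, 14 of 26 were listed and 11 tested, and 6 rose and 3 fell, against 27.3% and 22.5% of all genes, so that the share that fell was near that of all genes. Besides Perp and Sfn, which are also on the stratified list, Pmaip1, the cell death gene Noxa, rose from 2.18 and 1.56 FPKM to 8.77 and 9.58 (4.91-fold). Gtse1 fell from 38.5 to 17.2, each in 1 library, and Sesn2 from 23.1 in 1 library to 14.8 and 15.0. Of the genes of the ATF4 and heat shock responses, 16 of 34 were listed and 14 tested, and 8 rose and 3 fell. Of all genes 27.3% rose and 22.5% fell, so that the share that fell was near that of all genes. Without replicate 2 of day 5, 7 were tested, 3 rose and 1 fell, and without replicate 1 of day 10, 8 were tested and 2 rose. Ddit3, the stress factor CHOP, had a listed 0 in each day 5 library and 54.8 and 52.4 at day 10, with 393 and 395 implied fragments. It was listed at 0 in each library of days 3 and 4 that lists it as well, and these values may be failed estimates. Hspb8, a small heat shock protein, rose from 43.0 and 43.8 to 113 and 104 (2.51-fold), and Chac1, a glutathione-degrading enzyme, from 1.22 and 1.54 to 4.16 and 5.25. In Hspb8 and Chac1 both day 10 libraries lay above both of day 5, and 67.9% of all genes listed in all 4 libraries had no overlap. Hspe1, the mitochondrial co-chaperonin, fell from 315 to 212, each in 1 library.

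The metallothioneins, which bind zinc and copper, did not move as 1 family. Mt2 fell from 173 and 143 FPKM to 47.5 and 46.5 (3.35-fold lower) and Mt1 from 306 and 274 to 149.9 and 133, whereas Mt4 rose from 0.390 and 0.535 to 6.62 and 4.34 and Mt3 from 0.437 and 0.900 to 4.86 and 4.20. The ferritin gene Fth1 was at 339 and 335 and then at 334 and 345, and was not called. In oxidative phosphorylation 39 of 78 genes were listed and 29 tested, 6 rose and 4 fell, and the median was -0.04. Of all genes 27.3% rose and 22.5% fell. Without replicate 2 of day 5 or of day 10, 2 fell. With median-of-ratios scaling 6 rose and 11 fell, so no direction can be given. Cox7a1, a cytochrome oxidase subunit known from heart and muscle, rose from 4.55 in 1 library to 20.3 and 13.8, and Ndufa4 fell from 375 to 198, each in 1 library. Both tested genes of glycolysis, Slc16a1 and Pgam1, fell, by 0.35 and 0.24 on the log2 scale. Of the 7 linker and variant histone genes tested, 2 rose and 1 fell, so that the share that rose was near that of all genes. Hist1h1c rose from 30.7 and 31.3 to 69.6 in 1 library and Hist1h1e from 3.40 and 3.13 to 6.42 and 5.92, while H2afx fell from 105 and 109 to 63.4 and 57.7. H1fx was at 41.4 and 39.9 and then at 0 and 41.1, and was not called. Of the pausing and elongation factors, Leo1 of the Paf1 complex fell from 27.5 and 26.0 to 13.5 and 14.6 and Ell2 rose from 5.11 and 5.30 to 9.14 and 11.5. Whsc2, of the negative elongation factor, fell from 20 in 1 library to 12.1 and 13.2, and Hexim1 was not called.

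Markers of other cell types that such cultures could hold had low summed levels, apart from the neural list and Cebpb. Of 22 immune markers 15 were listed and 10 were listed in all 4 libraries, and their summed FPKM was 1.89 and 2.43 at day 5 and 0.305 and 0.249 at day 10. Lyz2, of macrophages, fell from 0.953 and 1.22 to 0.0349 and 0.133. The 5 endothelial markers listed in all 4 of 18 summed to 3.50 and 3.01 and then to 5.79 and 5.97, with Cldn5 up from 0.120 and 0.248 to 3.77 and 3.60 and Flt1 down from 2.63 and 2.11 to 1.03 and 1.03. The 11 endoderm and mesoderm markers listed in all 4 of 29 summed to 4.09 and 3.97 and then to 2.38 and 2.48. Of 23 muscle and adipocyte markers 12 were listed in all 4, with sums of 2.96 and 2.14 and then 23.1 and 40.0. Nearly all of the day 10 sum was Cebpb, listed at 0 and 0 and then at 21.6 and 39.0, which was not called. Cebpb was at 43.2 in the control library of day 3 and at 28.1 and 0 in those of day 4, so its zeros may be failed estimates. The part of these cells in the results was not tested.

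Most tested neural markers fell, while most tested genes of the peptide list rose. Of 34 neural markers 21 were listed and 7 tested, and 5 fell and none rose, against 22.5% of all genes that fell, with a median of -0.94. At day 10, 2 of the 7 were under 1 FPKM, and the remaining 5 all fell. The summed FPKM of the 17 listed in all 4 libraries was 126 and 116 at day 5 and 48.0 and 49.2 at day 10. Gap43, a growth cone protein, went from 22.7 and 22.6 to 4.07 and 3.28 (6.17-fold lower), Basp1, of the same kind, from 41.8 and 34.3 to 14 and 16.4, and Nes, the intermediate filament nestin, from 51.2 and 46.8 to 25.3 and 24.7. Insm1, a zinc finger factor of neuroendocrine cells, went from 4.19 and 5.80 to 0.865 and 1.02, and Nefl, neurofilament light, from 3.98 and 3.84 to 2.02 and 1.8. In Basp1, Nes, Insm1 and Nefl the groups did not overlap, as in 67.9% of all genes listed in all 4 libraries. Nefm and Neurog2 stayed at or under 1.25 FPKM in all 4 libraries and were not called.

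Over the same interval, cells with Cdk9-DN changed in fewer genes. Of 5783 genes tested there, 34.9% were called, 1304 higher (22.5%) and 715 lower (12.4%). The higher share of 64.6% depends on the scaling, with 1004 higher and 973 lower under median-of-ratios scaling and 1005 higher and 846 lower under quantile normalization. The 2 changes share no library. Of 5485 genes tested in both, 1541 were called in the same direction, which is 56.5% of the 2728 called in control cells and 81.4% of the 1894 called with Cdk9-DN, and 58 were called in opposite directions. Across genes the 2 changes had a Pearson r of 0.365, and of 0.743 over the 2384 protein-coding genes. Genes are not independent replicates, and these values describe the tables only. Among 642 protein-coding genes called in control cells with a difference beyond 1 on the log2 scale, the median change in the control direction was 1.53 in control cells and 0.90 with Cdk9-DN. These genes were chosen by their control change alone. That choice by itself favours the larger median in control cells, so the 2 medians are descriptions only.

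The difference between the 2 changes was tested as an interaction. It was called in 887 of 5485 genes (16.2%), with the control change above that with Cdk9-DN in 407 (7.42%) and below it in 480 (8.75%). Of these, 385 genes had a greater rise in control cells and 429 a greater fall, while 40 had a smaller rise and 22 a smaller fall. These classes do not cover all 887 genes, and they do not say whether the change in either vector was itself called. Leaving out 1 library of those compared left 525 to 750 genes. The count was lower by over 1.5 times without either day 5 control library (572 and 548), either Cdk9-DN library of day 5 (525 and 526) or either Cdk9-DN library of day 10 (573 and 535).

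**Figure D4:**
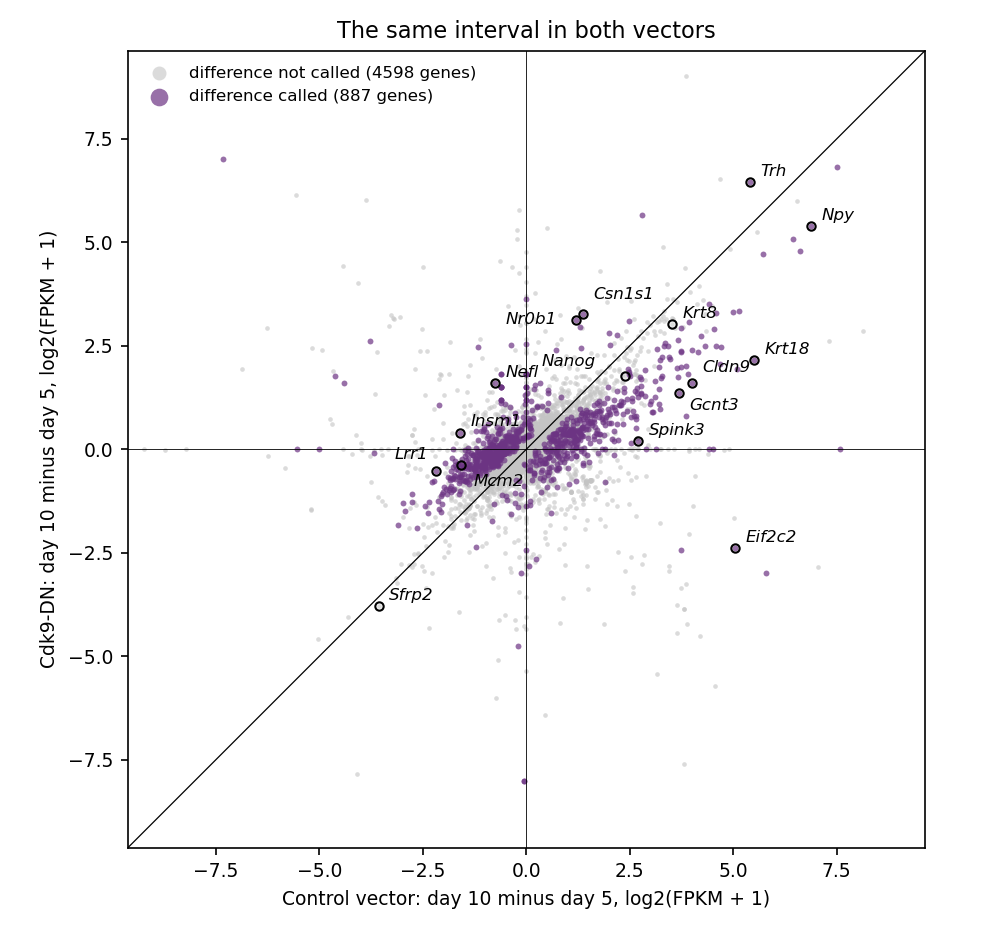
Log2 difference from day 5 to day 10 in control cells (horizontal axis) against that with Cdk9-DN (vertical axis), 1 point for each of 5485 genes, with the 887 whose difference was called in colour. Krt18 lies at 5.51 and 2.16, and Nefl and Insm1 lie below 0 in control cells and above 0 with Cdk9-DN.

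In most epithelial genes the control rise exceeded that with Cdk9-DN. Of 10 tested, 8 were above and none below, against 7.42% of all genes. Krt18 reached 7.10 and 6.31 FPKM with Cdk9-DN, from 0.574 and 0.883, against 86.6 and 83.8 in control cells (difference of the changes 3.35 ± 0.185, adjusted p = 9.92e-05). Cldn4 reached 29.0 and 27.3 against 102 and 98.0, Cldn3 29.1 and 24.9 against 82.0 and 80.2, and Cldn6 3.58 and 3.03 against 24.8. Krt8, at 97.9 and 98.2 against 189, did not pass the test of the difference (0.50, adjusted p = 0.0706). All these genes also rose with Cdk9-DN, by 2.0 to 4.80 on the log2 scale. Cldn9, another claudin, reached 2.38 and 2.49 with Cdk9-DN against 16.9 and 17.3, and Gcnt3, a glycosyltransferase of mucins, 1.41 and 1.76 against 11.8 and 12.7. Both had been under 0.2 FPKM at day 5 with either vector.

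Immediate early and TGF-beta genes differed in the same direction. Of 24 tested immediate early genes, 13 had a control change above that with Cdk9-DN and 1 below. Of 10 tested TGF-beta genes 6 were above and 1 below. Of all genes 7.42% were above and 8.75% below. Gadd45b was at 20.9 and 23.9 FPKM and then at 37.4 in 1 library with Cdk9-DN, against 134 and 135 in control cells at day 10. Dusp5 was at 2.95 and 3.26 and then at 8.03 and 7.41, against 32.4 and 34.6. Ctgf was at 90.4 and 93.7 and then at 196 and 193, against 376 in 1 library (difference of the changes 1.20, adjusted p = 1.63e-04). In these 3 genes the day 10 control values exceeded the day 10 values with Cdk9-DN in every library that lists them.

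In replication and ribosome biogenesis the control fall exceeded the fall with Cdk9-DN. Of 9 tested S phase genes 6 were below and none above, and of 7 ribosome biogenesis genes 5 were below and none above, against 8.75% of all genes. Mcm4 was at 45.2 and 41.8 FPKM and then at 29.0 and 28.2 with Cdk9-DN, against 15.3 and 15.7 in control cells at day 10. Mcm2 was at 58.0 in 1 library and then at 45.8 and 42.2, against 19.3 and 19.0. Rrs1 went from 64.7 and 64.8 to 44.3 and 45.2, against 18.8 and 19.8 (difference of the changes -1.29, adjusted p = 3.99e-05). Of 6 tested mitosis genes, 1 was below and none above. Plk1 fell to 22.3 and 19.9 with Cdk9-DN and to 19.0 and 18.1 in control cells, and the difference of -0.30 was not called (adjusted p = 0.132).

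The remaining groups held fewer such genes. Of 13 tested pluripotency genes 3 were above and 1 below, against 7.42% and 8.75% of all genes, so that the share below was near that of all genes. Nr0b1 rose more with Cdk9-DN, from 0.374 and 0.351 FPKM to 10.4 and 11.4, against 4.29 and 3.91 at day 10 in control cells, while Dppa5a reached 4.78 and 5.06 against 26.8 and 21.4. Tdgf1, at 8.69 and 7.35 with Cdk9-DN, and Nanog, at 6.24 in 1 library, did not pass the test of the difference (0.35 and 0.63). Fibroblast matrix genes were below in 2 of 7 tested, Dcn among them, which stood at 12.5 and 14 at day 10 with Cdk9-DN against 3.73 and 4.42. Trh reached 244 and 240.5 with Cdk9-DN, above the 189 and 162 of control cells. Ly6d, at 46.3 and 43.0 against 40.8 and 41.7, had a difference of the changes of 0.08 ± 0.264 (adjusted p = 0.864). Sfrp2 fell to 4.50 and 4.00 with Cdk9-DN, close to the 5.26 and 5.39 of control cells (difference of the changes 0.23 ± 0.166, adjusted p = 0.405).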

How the data were processed

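RNA was sequenced from control cells at days 5 and 10, 2 libraries each, and for comparison from the other 10 libraries of the series. The authors deposited a table of FPKM values for each library. The submitters' processing notes name CASAVA 1.8.2, TopHat2 2.0.10 and Cufflinks 2.2.1, with the builds mm9 and NCBIM37. The strandedness of the libraries and the filters behind unlisted genes are not given in the sources used here. Gene positions are those of the deposited tables, and a GENCODE M21 annotation gave gene types and exon numbers for 22524 of 26962 identifiers.

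Entries of the 16 identifiers with several entries were summed, and 1 failed entry was left out. An unlisted gene had no value, and a deposited 0 was kept. Genes that reached 1 FPKM in 2 or more of the 12 libraries from days 4, 5 and 10 were kept (7460). limma 3.58.1 under R 4.3.3 was fitted to log2(FPKM + 1), which understates the change of low genes, with a mean for each of 6 groups, an intensity trend and at least 2 residual degrees of freedom. The prior had 1.15 degrees of freedom. The p-values are two-sided and adjusted by Benjamini-Hochberg over all genes of a contrast. A group in which only 1 library lists a gene adds no spread of its own. The 2 libraries of day 3 stayed out of the fit.

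Fragments and depth were implied from the deposited bounds, taken as 2 standard deviations of counting error, an assumption that was not tested. Simulated data with known log2 differences covered the 5798 genes of the control comparison. Of 50 genes raised at each size, 42% were called at 0.5, 70% at 1, 80% at 2 and 96% at 4. Of 5598 unchanged genes 5 were called. The raised genes had a mean log2 value over 1 at day 5, none was lowered, and the noise was normal. Far fewer genes changed than were called in the data, so the rates in the data may differ.

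Named genes were the 12 highest and 12 lowest called genes listed in all 4 control libraries, without overlap and with at least 5 FPKM in the higher group, without unnamed models, small RNA and pseudogenes. The 5 highest and 5 lowest of the difference between vectors were added by the same conditions. To these came Sox2, Myc, Nanog, Thy1, Krt8, Krt18, Cdh2, Snai2, Ctgf and Mcm2 where listed. Of each of 28 gene lists, up to 4 called members in the main direction, 2 in the other and 2 uncalled were named. Some genes that these rules name are not reported here. Genes and lists were chosen with earlier results of these data known. Lists were described by counts and medians only. Alternatives were other pseudocounts, filters, scalings, gene types and library subsets. Python 3.11.15 with pandas 2.3.3 was used for the tables.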

Additional observations from a re-analysis of the deposited data

Results flagged for a closer look

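The change from day 5 to day 10 differed between the vectors in 887 of 5485 genes by limma's interaction test. The genes below have the 5 highest and the 5 lowest differences among those that met the rule for naming, written as the control change minus the Cdk9-DN change on the log2 scale.

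Krt18, of simple epithelium, had a difference of 3.35, Cldn9, a claudin, of 2.40, and Gcnt3, a glycosyltransferase, of 2.34, and all 3 rose with both vectors and further in control cells. Spink3, a secreted protease inhibitor, had a difference of 2.51 and was listed at 0 at day 5 with both vectors, at 6.39 and 4.74 FPKM at day 10 in control cells and at 0 and 0.312 with Cdk9-DN. Its control values implied 18 and 14 fragments. Eif2c2 had a difference of 7.43 (adjusted p = 0.0326), but 1 Cdk9-DN library of day 5 lists it at 26.4 and the other at 0. Its call was lost without any 1 of the 4 control libraries (adjusted p = 0.0727 to 0.0831) and without either Cdk9-DN library of day 10 (0.0848 and 0.0861). Without the Cdk9-DN day 5 library at 26.4 or the one at 0 the difference was called, at 5.04 or 9.82.

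Of the genes with a control change below that with Cdk9-DN, Nefl (-2.35) fell in control cells and rose from 3.46 and 4.08 to 13.3 and 13.5 FPKM with Cdk9-DN. Insm1 (-2.01) fell in control cells and was at 3.62 and 4.00 and then at 5.12 and 5.54 with Cdk9-DN. Nr0b1 (-1.92) and Csn1s1 (-1.91), a milk casein, rose with both vectors and further with Cdk9-DN, where Csn1s1 reached 18.4 and 17.9 against 5.62 and 4.45 in control cells. Lrr1 (-1.65), of a ubiquitin ligase, fell from 25.8 and 35.0 to 6.73 and 5.08 in control cells and was at 29.1 and 26.1 and then at 19.0 and 18.5 with Cdk9-DN.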

How the results depend on the processing

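The count of 2885 called genes ranged from 1643 to 3487 over the alternatives that kept all 4 control libraries, and from 2317 to 2396 when 1 control library was left out. These counts depend on the genes tested, 5798 in the main fit and 12411 without a filter on low values, where 3487 were called. It was 1803 of 2645 tested (901 higher, 902 lower) over protein-coding genes alone. In the main fit 844 of the protein-coding genes were higher and 819 lower, so this setting called more of them. It was 1643 of 4505 tested (925 higher, 718 lower) with only the 4 control libraries in the fit, where fewer genes and libraries enter. It was 1892 of 2932 tested without small RNA, pseudogenes and genes not annotated, an alternative chosen after seeing the data. With Cdk9-DN 2019 genes were called in the main fit and 1380 to 2292 over the other settings. Without 1 Cdk9-DN library of day 5 or 10 these were 1397 to 1511, and without 1 control library, which the comparison does not use, 1940 to 1989. For the difference 631 to 953 were called over the other settings and 525 to 750 without 1 library. Replicate numbers did not pair the libraries (r of deviations -0.162 between control day 5 and day 10, and -0.162 to 0.103 over all pairs of groups). With the replicate block 2571 genes were called for control cells, 1825 with Cdk9-DN and 705 for the difference, and with crossed numbers 2612 for control cells. Of 3861 values of 218 named results under alternatives, 3744 kept their direction and their side of the threshold, or were called in neither, and among these 26 uncalled values had the other sign. A further 67 values lost the call, 48 gained it and 2 reversed. These 2 were Sprr1b, at -1.25 with a value of 0 treated as not listed, and Fth1, at -0.23 with quantile normalization. The values of Sprr1b each implied less than 1 fragment. The cause was not tested. In all 16 named results lost the call under some alternative, most of them near the threshold or with a listed 0. Depth limits genes of low FPKM, such as Cldn4 at day 5, where 0.0624 FPKM implied 1 fragment. Apart from this, 168 genes at day 5 and 160 at day 10 were at 0 in 1 library and at 5 FPKM or more in the other, H1fx among them, with a listed 0 beside 389.7 implied fragments. The cause of these zeros was not tested.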

Other observations

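Families of genes that share a symbol were chosen after their values were seen and overlap with the lists, which already hold some of their members. All 8 claudins tested and all 7 keratins tested rose, against 27.3% of all genes, with medians of 3.73 and 2.49, and this held under both other scalings. Of these, 6 claudins and 5 keratins were under 1 FPKM in every listed day 5 library and could hardly have fallen. Cldn5, counted here, is also on the endothelial list. Without replicate 2 of day 10, 4 keratins were tested and 4 rose. Of 13 kallikreins, secreted proteases of near-identical sequence whose reads may be shared, 10 rose and 1 fell. Of 13 small proline-rich and late cornified envelope genes 10 rose and 1 fell, and of 6 genes of the Ly6 and Lypd surface proteins 5 rose. In these 3 families 10, 10 and 4 members were under 1 FPKM at day 5. Of 6 dual-specificity phosphatase genes 5 rose and none fell, with a median of 1.32, and without replicate 2 of day 5, 3 were tested and 3 rose.

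Of 10 protocadherins 7 fell and none rose, against 22.5% of all genes that fell, with a median of -0.63, and without replicate 2 of day 5 this was 4 of 8. At day 10, 4 of the 10 were under 1 FPKM. Of 6 Hox genes 3 fell, of 4 T-box genes 3 and of 3 Irx genes 3, and none rose. Without replicate 2 of day 5 these counts were 2 of 6, 1 of 3 and 2 of 3. Of 10 proteasome genes 5 fell and none rose, with 2 of 6 lower without replicate 2 of day 5 and 3 of 7 without replicate 1 of day 10.

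By gene class, 62.9% of 2645 protein-coding genes and 58.6% of 1434 processed pseudogenes were called, against 4.73% of 148 microRNA, 4.24% of 118 snRNA and 7.89% of 190 snoRNA genes. Pseudogenes share sequence with their parent genes, and their values were not separated from these. The precursors Mirlet7d and Mirlet7c-2 were called as higher, from 0 in both day 5 libraries to 152 and 36.3 and to 55.2 and 52.6 FPKM, but these values implied 1 to 4 fragments. Genes with a listed 0 in each day 5 library and 5 FPKM or more in each of day 10 numbered 104, of which 36 were called, and 68 had the reverse, of which 16 were called.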
